A study of Mus musculus with 27 samples.

Results

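Carbonic anhydrase genes of the mouse were followed over 3 tissues and 3 Mysm1 genotypes: Car1, Car2, Car3, Car4, Car5a, Car8, Car12 and Car14. They were picked by name as the red cell, muscle and fat, glial and liver forms of the family, with the opposite changes of Car1 and Car3 in bone marrow already known from these data. Of the 8 listed genes, 7 had at least 1 probe and Car5a, the liver mitochondrial form, had 0, so it is named only. The 7 genes are 7 of 19057 named genes on the array and were read by 11 of its 45281 probes. Tissue levels and bone marrow differences between genotypes went into this choice and are given as description, with no test. The liver and brain comparisons between genotypes did not enter it and were tested.

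The arrays were Illumina BeadChips, on which biotin-labelled RNA copies bind to beads that carry a probe, and the brightness of the beads is the measurement. Total RNA came from snap-frozen liver, brain and bone marrow of mice of the C57BL/6 background. Wild type was compared with heterozygous mice, Mysm1+/tm1a, and with homozygous mice, spelt Mysm1tma1/tm1a in the labels, with 3 arrays in each of the 9 groups and 27 in all. The allele Mysm1tm1a(KOMP)WTSI is of the knockout-first kind, in the gene for a histone H2A deubiquitinase, and is carried by every cell of the animal. The labels name no age, sex or treatment.

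The 9 bone marrow arrays were the dimmest. Their mean raw signal lay between 92.1 and 228, against 282 to 361 in liver and 285 to 373 in brain, and 20.0% to 35.4% of probes were detected, against 32.7% to 36.2% and 43.3% to 44.4%. The Mysm1 probe ILMN_3119954 was lowest in homozygotes in liver and brain. In bone marrow it read 6.18, 6.29 and 6.40 (log2 signal) in wild type, 6.35, 6.08 and 6.35 in heterozygotes, and 6.48, 4.88 and 6.95 on the arrays labelled homozygous. In these scaled signals replicates 1 and 3 labelled homozygous thus did not read lower than wild type. Both were dim arrays, with mean raw signals of 102 and 92.1 against 136 to 228 in wild type. Unscaled Mysm1 values are not given here. Replicate 2 labelled homozygous carried hepatocyte transcripts at a summed signal of 8018 against 342 to 629 on the other 8. These arrays are called "labelled homozygous" below, and the values of Car1 to Car4, of called marker genes and of the marker lists that rest on them are given with and without replicate 2. Wild-type and heterozygous bone marrow shared a BeadChip and the arrays labelled homozygous had their own, so that BeadChip and label cannot be told apart there.

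Carbonic anhydrases hydrate carbon dioxide to bicarbonate and a proton, and catalyse the reverse reaction too. The family is spread over cell compartments. Car1, Car2, Car3 and Car8 encode cytosolic proteins, Car5a a mitochondrial one, Car4 one held to the outer membrane by a lipid anchor, and Car12 and Car14 span the membrane with the catalytic domain outside. Red cells use Car1 and Car2 to load and unload carbon dioxide. Car2 also serves oligodendrocytes, the choroid plexus and acid-secreting osteoclasts. Car3, a slow enzyme, is abundant in liver, fat and slow muscle of rodents, and Car8 has lost its catalytic activity and is known from Purkinje cells of the cerebellum.

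Car1, Car3 and Car2 lie side by side on mouse chromosome 3 in the RefSeq annotation (assembly GRCm38.p6), with Car13 as the nearest other carbonic anhydrase gene. In map order the genes are Rbis, Car13, the pseudogene Gm5843, Car1, the pseudogene Gm16399, the noncoding RNA gene Gm41999, Car3, Car2 and A930001A20Rik. Car14 is also on chromosome 3, while Car8 is on chromosome 4, Car12 on 9 and Car4 on 11. The 3 neighbours did not share a tissue pattern, as the levels below show: Car1 and Car2 were highest in bone marrow and Car3 in liver.

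Promoter sequences from RefSeq (GRCm38.p6) matched 4 of the 8 genes, Car4, Car5a, Car12 and Car14. The 250 bases before the start of Car4, Car12 and Car14 are shown because these are the membrane-bound forms, and all were detected on every brain array. They are written 5′ to 3′ in the direction of the gene, and capitals mark the GC box letters GGGCGG on either strand. Car4 lies at chr11:84957504-84957753 on the plus strand, Car12 at chr9:66713436-66713685 on the plus strand, and Car14 at chr3:95904686-95904935 on the minus strand.
Car4: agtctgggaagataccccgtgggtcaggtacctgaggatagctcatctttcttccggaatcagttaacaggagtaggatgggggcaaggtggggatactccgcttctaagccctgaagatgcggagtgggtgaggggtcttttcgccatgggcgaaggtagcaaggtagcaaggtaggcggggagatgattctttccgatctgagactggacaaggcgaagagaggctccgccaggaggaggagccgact
Car12: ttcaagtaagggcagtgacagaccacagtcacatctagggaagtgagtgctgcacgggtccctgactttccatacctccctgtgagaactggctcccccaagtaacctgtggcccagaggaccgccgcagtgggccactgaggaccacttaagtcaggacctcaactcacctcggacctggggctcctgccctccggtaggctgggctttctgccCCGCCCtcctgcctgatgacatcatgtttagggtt
Car14: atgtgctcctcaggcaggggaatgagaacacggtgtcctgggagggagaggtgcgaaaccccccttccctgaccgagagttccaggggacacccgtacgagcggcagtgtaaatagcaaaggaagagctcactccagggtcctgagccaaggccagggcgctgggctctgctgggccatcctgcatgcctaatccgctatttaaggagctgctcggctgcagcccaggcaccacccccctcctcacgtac
The G and C content was 56.4% for Car4, 59.2% for Car12 and 62.0% for Car14, with 11, 6 and 10 CpG dinucleotides. Over all 32851 windows of the same length the medians were 52.4% and 6. GGGCGG was found once, on the opposite strand of Car12, and 32.7% of all windows hold it on either strand. The TATA box letters TATAAA were in none of the 3 windows on either strand, against 12.4% of all windows. For the GATA-type motif AGATAA the share was 9.99% of all windows, again with none of the 3. These matches describe letters only and say nothing of a factor's binding.

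Car1 and Car2, the red cell forms, were highest in bone marrow. Levels between tissues are log2 signals after background correction and scaling over all 27 arrays, and ± is the SD. Wild-type Car1 (ILMN_1236588) read 12.15 ± 0.11 in bone marrow and 7.22 ± 0.51 in liver (n = 3 each), a 30.5-fold difference. In brain it was detected on 0 of 9 arrays, at least 177-fold below bone marrow. A probe counted as detected where its deposited detection p was below 0.05.

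Car2 (ILMN_2606746) was detected on every array of the 3 tissues. Wild-type bone marrow read 11.85 ± 0.07, brain 9.04 ± 0.17 and liver 5.82 ± 0.35 (n = 3 each). Bone marrow was 7.02-fold above brain and brain 9.35-fold above liver, and no array of one tissue reached the range of the next. The other Car2 probe (ILMN_2603504) was detected on 2 wild-type bone marrow arrays and on no other.

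Car3 had the widest range of the family. Its probe (ILMN_2630047) read 12.74 to 13.49 over the 9 liver arrays, with a median of 12.99. It was detected on 6 of 9 bone marrow arrays, where it spanned 4.52 to 9.35, and on 0 of 9 brain arrays. Wild-type liver stood 81.4-fold above wild-type bone marrow and at least 370-fold above brain.

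The membrane-bound forms followed another order. Car4 (ILMN_2655795) was detected on all 9 brain arrays, between 7.64 and 8.25, but on 3 of 9 liver and 4 of 9 bone marrow arrays. Wild-type brain was 7.26-fold above liver and 6.27-fold above bone marrow, and the 2 lower tissues overlapped. Of the wild-type arrays only 2 from liver and 1 from bone marrow detected Car4, so both folds are set against means near background. Car12 was detected in brain on all 9 arrays by both probes, at 7.11 to 8.56 for ILMN_1251713 and 5.01 to 6.09 for ILMN_2891583. Outside brain only 1 array detected it, a bone marrow array labelled homozygous (replicate 1, ILMN_2891583, 6.84), while the same array did not detect ILMN_1251713.

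Car14 was a liver and brain transcript. ILMN_2973824 read 7.38 to 8.25 in liver and 5.87 to 6.41 in brain, with no overlap, and wild-type liver was 3.66-fold above brain. ILMN_1220686, detected on 8 of 9 livers, ran from 5.01 to 6.03 there and from 4.99 to 5.61 in brain, so this probe did not separate them. In bone marrow 1 of 9 arrays detected the first probe and 0 the second.

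The Car8 probes (ILMN_2513960 and ILMN_2682015) were detected on 0 of 27 arrays. The Purkinje cell list held 4 genes with a probe, Calb1, Pcp2, Ppp1r17 and Car8 itself, and the brain arrays detected 0 of them. In the other direction the brain arrays detected all 7 astrocyte genes and 8 of 10 oligodendrocyte genes on every array. Of the hepatocyte genes, 13 of 16 were detected on every liver array, and of the erythroid genes 15 of 18 on every bone marrow array.

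**Figure D1:**
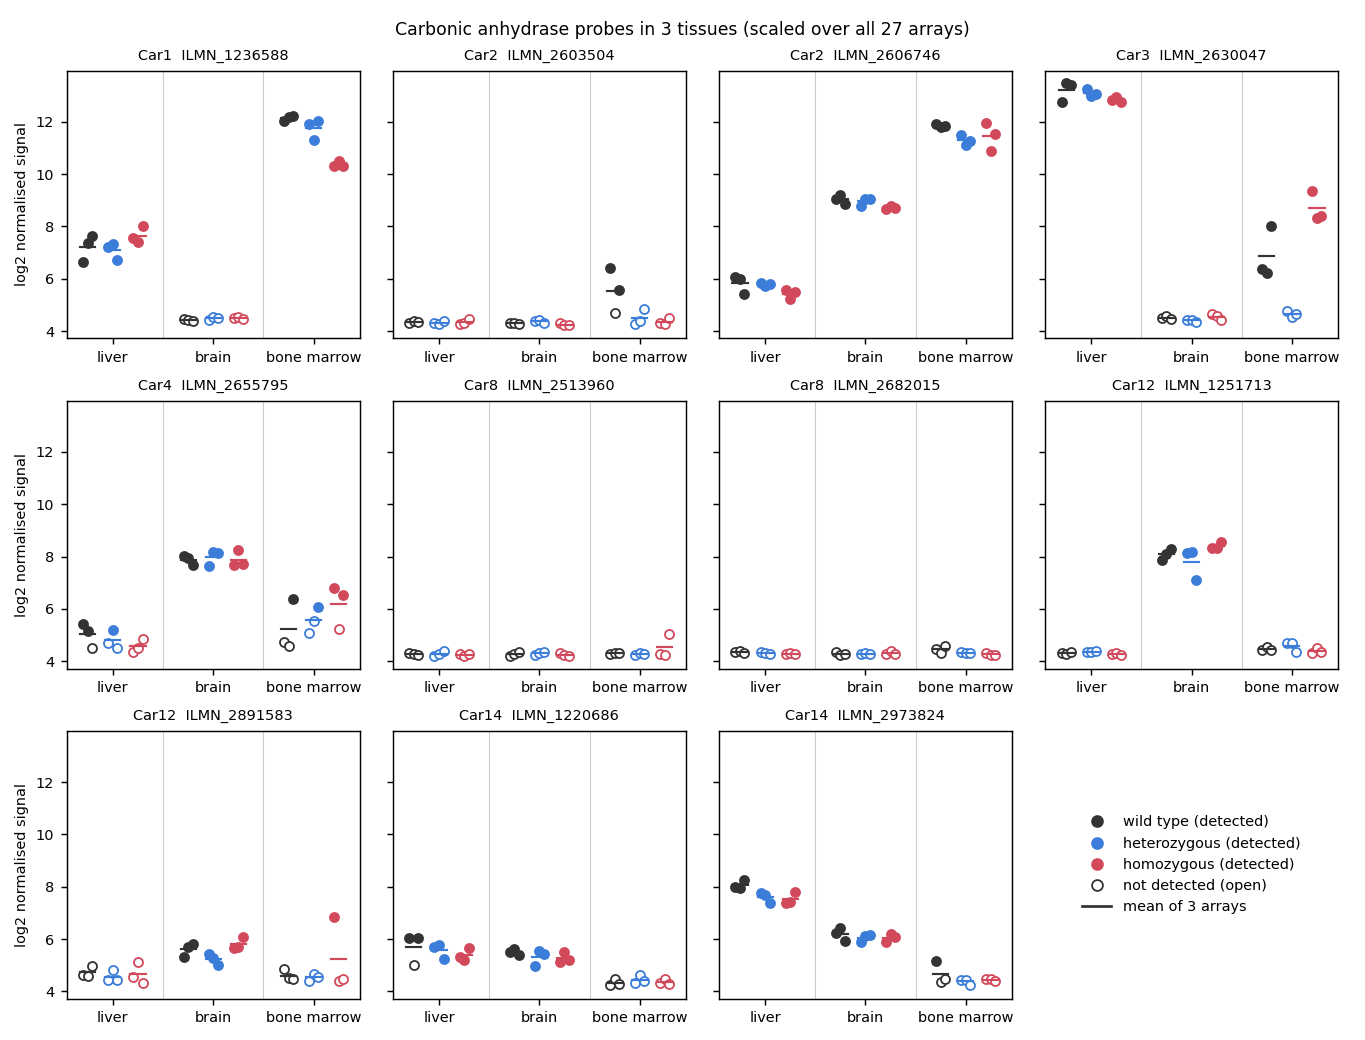
Each panel shows 1 probe, with the tissues along the x axis and the log2 signal, scaled over all 27 arrays, on the y axis; points are arrays, open points are arrays that did not detect the probe, colours are labelled genotypes and short lines are means of 3 arrays. Car1 and Car2 peak in bone marrow, Car3 and Car14 (ILMN_2973824) in liver, and Car4 and Car12 in brain, while no array detected either Car8 probe.

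The sizes of these tissue differences turn on the scaling, and the order of bone marrow and brain for Car2 held under every scaling in wild type only. With each tissue scaled on its own the bone marrow to brain difference of Car2 was 0.26 on the log2 scale in place of 2.81, and the bone marrow to liver difference of Car1 was 3.27 in place of 4.93. The wild-type raw signal of Car2 was 1936 ± 802 in bone marrow and 1029 ± 105 in brain (SD, n = 3 each). In heterozygotes it was 433 ± 183 and 856 ± 66.0, and in homozygotes 445 ± 180 and 704 ± 59.0, so brain was the brighter tissue there before scaling. With each tissue scaled alone, heterozygous bone marrow differed from brain by -0.34 and bone marrow labelled homozygous by 0.12, with overlapping arrays. The raw Car1 signal of the arrays labelled homozygous was likewise below that of homozygous liver (mean log2 7.81 and 8.19). Against brain, Car12 ILMN_2891583 in liver lay 0.89 lower, or 0.35 without background correction. The brain to bone marrow difference of Car12 ILMN_1251713 was 3.62, or 2.04 without background correction, and that of Car4 was 2.65, or 1.53. In a piece of tissue, fewer cells of a type and less RNA per cell cannot be told apart.

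In bone marrow Car1 was lower and Car3 higher on the arrays labelled homozygous than in wild type, the contrast for which the genes were picked. Differences between genotypes use signals scaled over the 9 arrays of a tissue. Of the 4 member probes that passed the detection filter (detected on at least 3 of 9 arrays), 1 lay wholly below and 1 wholly above wild type. Over all 15087 bone marrow probes the shares were 20.4% and 10.1%, and limma called 1.13% at an adjusted p below 0.05 (0.716% against heterozygotes and 0% for heterozygotes against wild type). Without replicate 2 labelled homozygous, 4640 probes (30.8%) were called against wild type in place of 171, and 1990 (13.2%) against heterozygotes in place of 108. Against heterozygotes 1 member probe lay wholly below and 1 wholly above, where 10% and 4.77% of all probes did. Because this contrast chose the members, nothing is read from these shares.

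Car1 read 10.23, 10.48 and 10.53 in wild type, 10.07, 9.34 and 10.25 in heterozygotes, and 8.34, 8.52 and 8.34 on the arrays labelled homozygous (log2 signal). The 3 arrays labelled homozygous were the lowest of the 9, and heterozygotes overlapped wild type. The difference between arrays labelled homozygous and wild type was -2.01 ± 0.25 (SE of the fit), or 4.03-fold, and against heterozygotes it was -1.49 ± 0.25. Without replicate 2 these were -2.07 and -1.55.

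The raw Car1 signals were 2415, 3675 and 1491 in wild type, 524, 304 and 1225 in heterozygotes, and 178, 451 and 140 on the arrays labelled homozygous. Before scaling the last 2 groups overlapped, since 451 lies above 304. With each array's median raw signal subtracted as background but no scaling between arrays, a setting added once the data had been seen, the difference between arrays labelled homozygous and wild type was -3.82.

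Car3 read 5.12, 5.05 and 6.29 in wild type and 7.45, 6.55 and 6.61 on the arrays labelled homozygous. The lowest of the latter lay just above the highest wild-type array. The difference was 1.38 ± 0.35 (SE), or 2.61-fold, and 1.54 without replicate 2. Heterozygous arrays read 4.53, 4.42 and 4.48 and detected the probe on 0 of 3 arrays. In these scaled signals wild type was therefore at least 1.54-fold, and the arrays labelled homozygous at least 4.03-fold, above heterozygotes. Both bounds hold for this setting only. Without background correction the fitted difference between heterozygotes and wild type was -0.45 (log2), smaller than a 1.54-fold change.

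The raw signals of Car3 did not separate the arrays labelled homozygous from wild type. Wild-type arrays had 107.7, 114.2 and 125.3, heterozygotes 74.0, 69.1 and 75.0, and the arrays labelled homozygous 125.8, 154.0 and 91.2. Replicate 3 of the last group, the dimmest array of the series, lay below every wild-type array before scaling and above all of them after it. With no scaling between arrays the difference was 0.32, without background correction it was 0.77, and with array weights 2.18. Against heterozygotes, which did not detect the probe, the lower bound for the arrays labelled homozygous also turned on the setting. It was at least 2.07-fold without background correction and at least 2.41-fold at an offset of 50, in place of at least 4.03-fold.

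**Figure D2:**
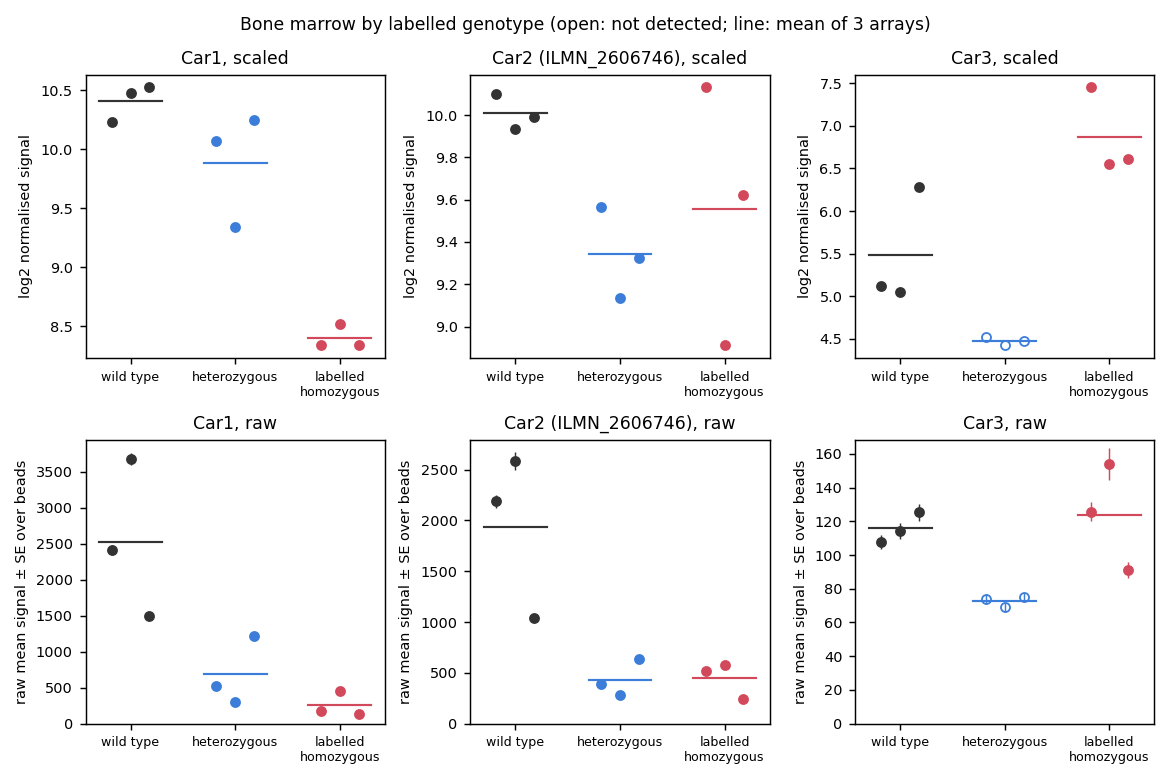
Car1, Car2 and Car3 on the 9 bone marrow arrays by labelled genotype, as log2 signal scaled over these arrays (upper row, axes not starting at 0) and as raw signal with the standard error over beads (lower row, axes from 0). For Car1 the arrays labelled homozygous are lowest of all after scaling; for Car3 they lie above wild type after scaling but overlap it before.

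Car2 (ILMN_2606746) in bone marrow read 10.10, 9.93 and 9.99 in wild type, 9.57, 9.13 and 9.33 in heterozygotes, and 10.13, 8.91 and 9.62 on the arrays labelled homozygous. Heterozygotes lay wholly below wild type on the shared BeadChip, by 0.67 ± 0.29 (SE), as did Car3; 15.7% of all probes were wholly lower and 11.5% wholly higher in that comparison. The arrays labelled homozygous spanned both groups (-0.45 ± 0.29 against wild type and 0.21 against heterozygotes). Their lowest, replicate 2, also had the lowest erythroid sum, and without it the differences were -0.13 ± 0.22 and 0.54 ± 0.22. Car4 overlapped between all groups, with 0.37 ± 0.26 between arrays labelled homozygous and wild type, and was detected on 2 and 1 of 3 arrays. Without replicate 2 this difference was 0.58 with no overlap, where 62% of all bone marrow probes had none.

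Erythroid genes are the setting in which Car1 and Car2 are best known, and most of them read lower too. Of 16 measured, 15 were lower on the arrays labelled homozygous than in wild type, with a median of -0.47 against -0.16 over all probes, and limma called 0 of them. Their summed signal was 74895 to 80668 in wild type, 72371 to 76802 in heterozygotes and 67949 to 79231 on the arrays labelled homozygous, so the sums overlapped. The mean log2 signal of the list was 8.70 to 8.86 in wild type, 8.34 to 8.48 in heterozygotes and 7.57 to 8.73 on the arrays labelled homozygous. By this mean heterozygotes lay wholly below wild type, while the arrays labelled homozygous overlapped it. In heterozygotes 13 of 16 were lower than in wild type, with a median of -0.36 against -0.06 over all probes and 0 called. Replicate 2 had 15 of 16 erythroid genes below the wild-type range, while replicates 1 and 3 had 6 and 8 below it and 5 each above it. Without replicate 2, 9 of 16 erythroid genes were lower than in wild type, with a median of -0.045 against -0.22 over all probes. Limma then called 2 of the 16 lower, where 30.8% of all bone marrow probes were called. These were Ermap and Hbb-b2, the latter uncertain because near-identical globin genes may share its probe. Neutrophil genes read higher for 8 of 8, with a median of 0.39 and 0 called (6 of 8, 0.22 and 0 without replicate 2). Their sums were 46002 to 51497 in wild type, 50429 to 56430 in heterozygotes and 58262 to 81430 on the arrays labelled homozygous. The part of cell composition in the Car1 difference was not tested.

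Car3 is known from fat, muscle and liver, and the lists for these were read on the same arrays. The fat list (7 genes with a probe) summed to 343 to 375 in wild type, 330 to 368 in heterozygotes and 466 to 606 on the arrays labelled homozygous, with no overlap. The adipokine gene Adipoq read 6.84, 7.07 and 7.01, then 6.64, 6.996 and 7.29, then 8.20, 7.82 and 7.34 in the same order of groups. Of the fat genes 3 were measured and limma called 0, or 1 higher (Lep) without replicate 2, where 30.8% of all probes were called. Fabp4, Plin1 and Retn were detected on no bone marrow array.

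The skeletal muscle list (16 genes) summed to 641, 524 and 1985 in wild type, 774, 428 and 540 in heterozygotes, and 413, 476 and 2387 on the arrays labelled homozygous. Replicate 3 was the high array in both of these groups, and in wild type it was also the array with the highest Car3. Among the arrays labelled homozygous the highest Car3 was on replicate 1, where the muscle sum was lowest. Casq1, Myh1 and Myh4 of the muscle list, and Alb, Apoh, Fgb and Tat of the hepatocyte list, were detected on no bone marrow array. The array with the hepatocyte sum of 8018, replicate 2, had the lowest Car3 of its group. Of 5 measured hepatocyte genes all were higher than in wild type, and limma called Cps1, a urea cycle enzyme (2.48 ± 0.42, adjusted p = 0.0276). Without replicate 2 its difference was 2.74 ± 0.44 (limma adjusted p = 0.00286), where 30.8% of all bone marrow probes were called. All 5 genes lay above the wild-type range on replicates 1 and 2, and on replicate 3 there were 2 above, 1 below and 2 inside it.

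The endothelial and astrocyte sums of the arrays labelled homozygous lay above those of the other 6 arrays. Endothelial genes (8 with a probe) summed to 349 to 431 in wild type, 355 to 383 in heterozygotes and 562 to 591 on the arrays labelled homozygous, with 0 called. Without replicate 2, 3 of them were called (Flt1, Kdr and Robo4, 2 higher and 1 lower), where 30.8% of all bone marrow probes were. The astrocyte list (7 genes) summed to 335 to 368, 341 to 467 and 661 to 1064, and of its 5 measured genes limma called the gap junction gene Gja1 (1.70 ± 0.30, adjusted p = 0.0311). Without replicate 2 it was 1.83 ± 0.31 (limma adjusted p = 0.0034). Oligodendrocyte sums overlapped, at 316 to 375 in wild type, 372 to 478 in heterozygotes and 314 to 429 on the arrays labelled homozygous. Of 6 oligodendrocyte genes measured, 4 were higher than in wild type, with a median of 0.29, and the 1 that limma called, the myelin enzyme gene Cnp, was lower (-1.89 ± 0.34, adjusted p = 0.0349). Without replicate 2 Cnp was -2.27 ± 0.27 (limma adjusted p = 0.00145), where, as for Gja1, 30.8% of all bone marrow probes were called. Osteoclasts are another source of Car2, and their list summed to 624 to 820, 570 to 804 and 765 to 1046, with overlap and 5 of 10 genes detected on no array. Whether RNA of these cells or tissues had a part in the Car1, Car2 or Car3 values was not tested.

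**Figure D3:**
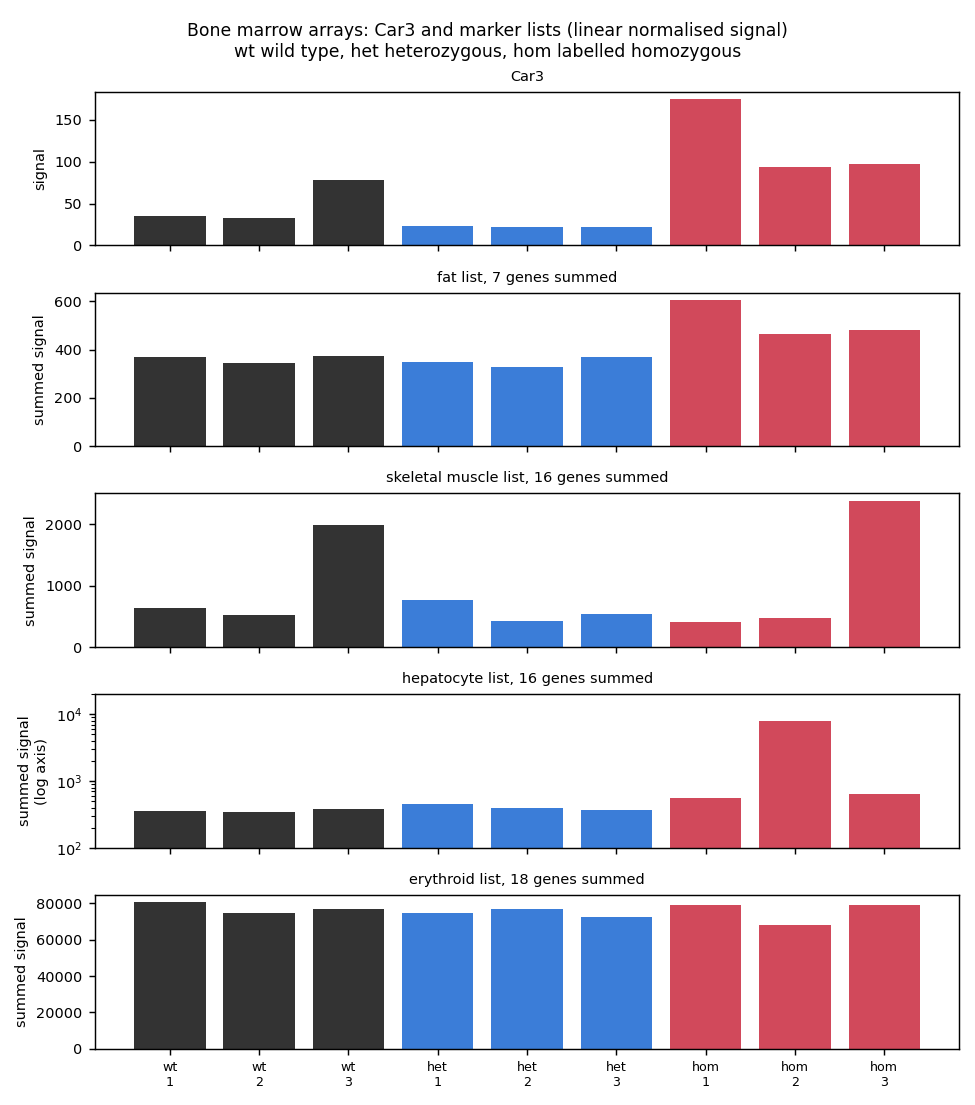
Car3 and the summed signals of the fat, skeletal muscle, hepatocyte and erythroid lists on each bone marrow array (x axis, labelled genotype and replicate; y axes, linear signal after scaling, with a log axis for the hepatocyte list). The fat sums of the 3 arrays labelled homozygous (466 to 606) exceed all others, the muscle sum is high on replicate 3 of wild type and of the arrays labelled homozygous, and the hepatocyte sum of 8018 is on 1 array.

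In liver no carbonic anhydrase probe passed the test between genotypes. By limma, 0 of 6 member probes were called in homozygotes against wild type, where 1.26% of the 16439 probes were, and 2 had an unadjusted p below 0.05 (16.8% of all probes). With the replicate number as a block, 73 probes (0.444%) were called in place of 207, with 0 of 6 member probes again. The counts were 0 of 6 for heterozygotes against wild type, where 0% of all probes were called, and 0 of 6 for homozygotes against heterozygotes, where 0.505% were. At an unadjusted p below 0.05 they were 1 and 0, where 6.93% and 13.1% of all probes were. The homozygous livers had been hybridised on a separate BeadChip, so that BeadChip and genotype cannot be told apart, while wild-type and heterozygous livers shared a BeadChip.

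Car14, the membrane form that liver expresses, had the smallest p in both comparisons with wild type. ILMN_2973824 read 8.02, 7.99 and 8.28 in wild type, 7.74, 7.65 and 7.33 in heterozygotes, and 7.34, 7.37 and 7.79 in homozygotes. Every wild-type array lay above every array of the other groups. Homozygotes differed by -0.60 ± 0.16 (SE; 95% interval -0.95 to -0.24; limma adjusted p = 0.110), and 23.4% of all probes had groups that did not overlap in that comparison. Heterozygotes differed by -0.52 ± 0.16 (-0.88 to -0.17; limma adjusted p = 0.537), where 11.5% of all probes did not overlap. The other probe, ILMN_1220686, differed by -0.31 ± 0.25 in homozygotes and -0.15 ± 0.25 in heterozygotes, with overlapping groups.

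Car3, the brightest member in liver, read 13.31, 14.05 and 13.98 in wild type, 13.83, 13.57 and 13.64 in heterozygotes, and 13.38, 13.50 and 13.33 in homozygotes. Homozygotes lay wholly below heterozygotes, where 20.1% of all probes had no overlap, but overlapped wild type, whose first replicate was the lowest liver array. The differences were -0.38 ± 0.18 against wild type (95% interval -0.78 to 0.03; limma adjusted p = 0.338) and -0.28 ± 0.18 against heterozygotes (-0.68 to 0.13; limma adjusted p = 0.564). Changes of 2-fold or more in either direction lie outside both intervals.

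Car1 in liver read 6.50, 7.34 and 7.59 in wild type, 7.16, 7.26 and 6.59 in heterozygotes, and 7.51, 7.37 and 8.02 in homozygotes. Homozygotes lay wholly above heterozygotes, as 1 of 3 member probes without overlap there (20.1% of all probes), by 0.62 ± 0.29 (95% interval -0.02 to 1.26), the smallest p among the members there (limma adjusted p = 0.394). Against wild type the difference was 0.49 ± 0.29 (-0.15 to 1.13; limma adjusted p = 0.430). Among the erythroid genes, Alas2, the heme synthesis enzyme of red cells, was 1.55 ± 0.26 higher in homozygous than wild-type liver (limma adjusted p = 0.0232). Tspan33, a membrane protein of the red cell lineage, was 0.88 ± 0.16 higher (limma adjusted p = 0.0328), and the other 7 of 9 measured did not pass. With the replicate block Alas2 still passed (limma adjusted p = 0.0498) and Tspan33 did not (limma adjusted p = 0.0802). The erythroid sum of 3829 to 5427 in wild-type liver overlapped the 4182 to 7414 of homozygotes, and the part of blood cells in the Car1 values was not tested.

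Car2 in liver was dim. It read 5.84, 5.76 and 5.18 in wild type, 5.61, 5.48 and 5.55 in heterozygotes, and 5.34, 5.01 and 5.26 in homozygotes. Homozygotes lay wholly below heterozygotes (-0.34 ± 0.17, limma adjusted p = 0.433), where 20.1% of all probes had no overlap. They overlapped wild type (-0.39 ± 0.17, 95% interval -0.77 to -0.01, limma adjusted p = 0.287). Car4 was detected on 2 wild-type, 1 heterozygous and 0 homozygous livers, too near background for a fold. In the same livers 7 of 7 measured male-biased genes were called higher and 5 of 5 female-biased genes lower in homozygotes than in wild type (7 and 3 with the replicate block). Endothelial genes, a known site of Car4, were lower for 8 of 8, with a median of -0.19 and 0 called. Their sums were 2363 to 2550 in wild type, 2235 to 2473 in heterozygotes and 1942 to 2288 in homozygotes. Neutrophil genes were higher for 4 of 4, with 0 called. Whether the shift in any of these lists had a part in the carbonic anhydrase values was not tested.

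In brain the carbonic anhydrases also passed no test. By limma, 0 of 6 member probes were called in each of the 3 comparisons. Over all 20852 probes the shares called were 0.00959% for homozygotes against wild type, 0% for heterozygotes against wild type and 0.00959% for homozygotes against heterozygotes. At an unadjusted p below 0.05 there were 1, 1 and 3 member probes, where 5.1%, 5.91% and 6.14% of all probes were. Heterozygous and homozygous brains shared a BeadChip and wild-type brains lay on another, so that for comparisons with wild type BeadChip and genotype cannot be told apart.

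Car2 was lower in homozygous brain. It read 9.76, 9.90 and 9.59 in wild type, 9.51, 9.77 and 9.76 in heterozygotes, and 9.38, 9.50 and 9.43 in homozygotes, whose arrays were the 3 lowest of the 9. The difference of -0.32 ± 0.11 (95% interval -0.56 to -0.07) did not pass (limma adjusted p = 0.962), and 10.4% of all probes had groups without overlap. On the shared BeadChip, homozygotes differed from heterozygotes by -0.24 ± 0.11 (limma adjusted p = 0.807). A change of 1.5-fold or more lies outside both intervals.

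Oligodendrocyte genes, among which Car2 is usually counted in brain, were lower in homozygotes than in wild type for 9 of 9 measured, with a median of -0.24 against 0.00 over all probes, and limma called 0. Their sums were 49301, 48580 and 41562 in wild type, 37318, 45202 and 45914 in heterozygotes, and 34463, 45753 and 40338 in homozygotes. The groups overlapped, and replicate 1 of the homozygotes had both the lowest sum and the lowest Car2. Heterozygotes, on the same BeadChip as homozygotes, were lower than wild type for 9 of 9 too (median -0.18, 0 called), where Car2 differed by -0.07. Between homozygotes and heterozygotes 7 of 9 were lower, with a median of -0.09. Replicate 1 of the homozygotes also stood apart in skeletal muscle genes, with a sum of 9813 against 4411 to 6066 on the other 8. Without it Car2 in homozygotes differed by -0.29 ± 0.13 from wild type and -0.22 ± 0.13 from heterozygotes, with no overlap in either. Of all probes, 19.2% and 22.2% had no overlap in these comparisons. The oligodendrocyte median was then -0.16 against wild type, with 8 of 9 lower, and 0.00 against heterozygotes. The part of oligodendrocyte or muscle content in the Car2 values was not tested.

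Car12 had the smallest p among the members in homozygous against heterozygous brain, a comparison within 1 BeadChip. ILMN_2891583 read 5.89, 6.39 and 6.54 in wild type, 6.05, 5.83 and 5.44 in heterozygotes, and 6.33, 6.40 and 6.83 in homozygotes. Homozygotes lay wholly above heterozygotes, by 0.75 ± 0.21 (95% interval 0.27 to 1.22; limma adjusted p = 0.698), and 11.2% of all probes had groups without overlap. Heterozygotes differed from wild type by -0.50 ± 0.21, with overlap (limma adjusted p = 0.835; smallest p of that comparison, in which 0 member probes and 11.1% of all probes had groups without overlap). ILMN_1251713 read 8.63, 8.86 and 9.04, then 8.87, 8.91 and 7.89, then 9.06, 9.06 and 9.29, and its homozygotes lay 0.58 ± 0.25 above heterozygotes, again without overlap (limma adjusted p = 0.807), and also wholly above wild type (0.29 ± 0.25; limma adjusted p = 0.984).

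Both Car12 probes were lowest on replicate 3 of the heterozygous brains. Without it homozygotes lay above heterozygotes by 0.25 ± 0.14 for ILMN_1251713 and 0.58 ± 0.22 for ILMN_2891583, with no overlap (limma adjusted p = 0.864 and 0.809). Of all probes, 20.4% then had no overlap, against 11.2% with that array kept in. That array also had the lowest sum of the choroid plexus list, 414, against 927 to 2009 on the other 8. Ttr, the main secreted protein gene of the choroid plexus and a member of the hepatocyte list here, read 8.11 on it and 12.96 to 13.55 on the other 8, and was looked up after the list sums were seen. The choroid plexus, which makes cerebrospinal fluid, is one of the places where membrane carbonic anhydrases are known. All 7 choroid plexus genes were higher in homozygotes than in heterozygotes, with a median of 0.96 and 0 called by limma, or 0.36 and 0 without heterozygous replicate 3. The list summed to 1200 to 1810 in wild type, 414 to 1300 in heterozygotes and 1151 to 2009 in homozygotes. How much choroid plexus each sample held, and its part in Car12, was not tested.

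**Figure D4:**
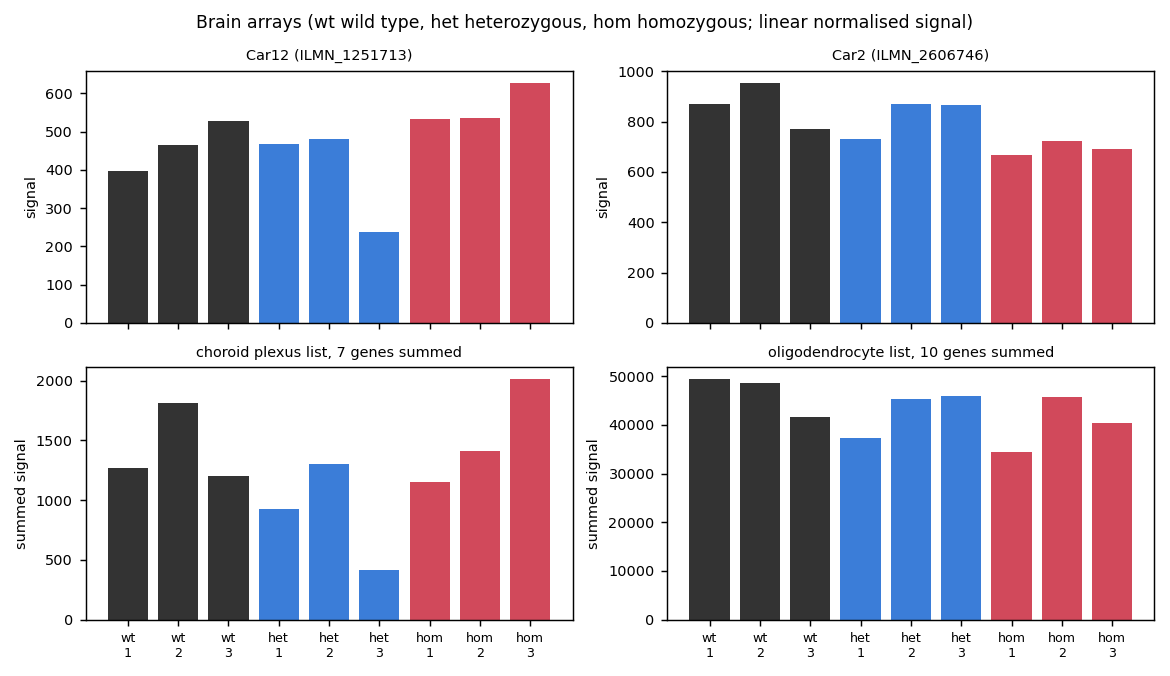
Car12 (ILMN_1251713) above the choroid plexus list, and Car2 (ILMN_2606746) above the oligodendrocyte list, on each of the 9 brain arrays (x axis, genotype and replicate; y axes, linear signal after scaling, from 0). Heterozygous replicate 3 has the lowest Car12 and the lowest choroid plexus sum of 414, and the 3 homozygous arrays have the lowest Car2.

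Car4, which brain capillaries carry, and Car14 overlapped between all brain genotypes. Car4 read 8.78, 8.69 and 8.46 in wild type, 8.41, 8.93 and 8.88 in heterozygotes, and 8.43, 9.002 and 8.49 in homozygotes. Homozygotes and wild type differed by -0.00 ± 0.19 (95% interval -0.42 to 0.42). Car14 ILMN_2973824 differed by -0.16 ± 0.15 (-0.50 to 0.18) and ILMN_1220686 by -0.32 ± 0.21 (-0.79 to 0.15).

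**Figure D5:**
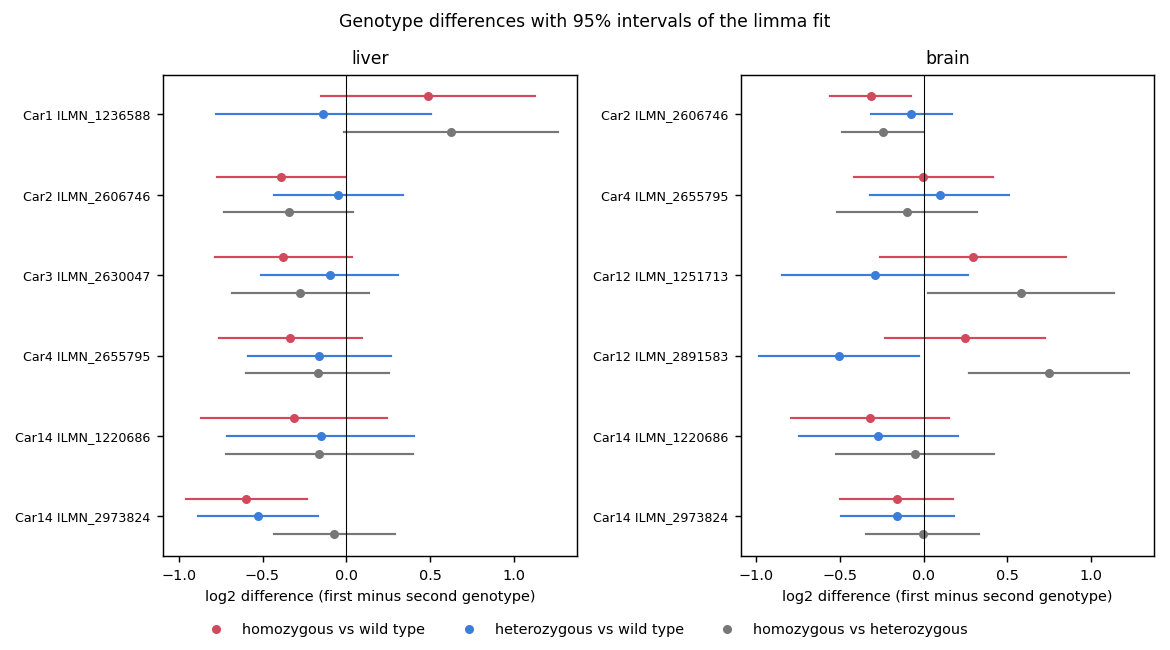
Log2 differences between genotypes (x axis) for the member probes that passed the detection filter in liver (left) and brain (right), with 95% intervals of the limma fit and 1 colour for each pair of genotypes. Most intervals include 0, those that do not belong to Car2, Car12 (both probes) and Car14 ILMN_2973824, and no probe passed after adjustment over all probes of the tissue.

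The difference between liver and brain in the homozygous against wild-type change was tested as an interaction over the 18 arrays of both tissues. Limma called 0 of 8 member probes and 0.584% of all 22607 probes. Car1 and Car3 were detected on 0 brain arrays and both Car12 probes on 0 liver arrays, so for 4 of the 8 a tissue at background was compared; the other 4 were Car2, Car4 (3 of 9 livers) and both Car14 probes. The smallest p was that of Car3, at -0.35 in liver and 0.05 in brain (difference -0.40 ± 0.21; limma adjusted p = 0.495), with the probe detected on 0 brain arrays. For Car2, measured on every array of both tissues, the changes were -0.44 and -0.34 (difference -0.10 ± 0.24; limma adjusted p = 0.918). At an unadjusted p below 0.05 there were 0 members and 11.4% of all probes.

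Other carbonic anhydrases and the bicarbonate transporters they work beside showed no called change with all arrays in. Of 8 further family members on the array (Car5b, Car6, Car7, Car9, Car10, Car11, Car13 and Car15), 3 were measured in liver, 7 in brain and 1 in bone marrow. Car6, the secreted form, was detected on 0 of 27 arrays. Car11, an acatalytic relative, read 11.45 to 12.29 on the brain arrays (log2 signal scaled within brain), and Car10, another, 9.66 to 9.99. Limma called 0 of the measured ones in each of the 9 comparisons. Of 12 bicarbonate transporter genes on the array, 8 were measured in liver, 6 in brain and 6 in bone marrow. Limma called 0 of them in the same 9 comparisons. Without replicate 2 labelled homozygous, where 30.8% of all bone marrow probes were called against wild type, Car13, a cytosolic form, was called lower (-0.61 ± 0.20; limma adjusted p = 0.0468), and Slc26a3 and Slc4a4 were called higher. Slc4a1, the red cell anion exchanger, read 13.62, 13.72 and 13.39 in wild-type bone marrow, 13.35, 13.62 and 12.67 in heterozygotes, and 13.43, 11.77 and 13.48 on the arrays labelled homozygous, with overlap.

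Genes of the most similar pattern over the 9 arrays of a tissue were taken among probes detected on all 9, by Pearson correlation, as a description. For Car1 in bone marrow they were Cdca4 (r = 0.969), Tgfbr2 (0.956) and Tk1 (0.953). For Car2 in bone marrow they were Prxl2a (0.988), Fech (0.975), the last enzyme of heme synthesis, and Mpp1 (0.965), a red cell membrane protein. The points share array brightness and the genotype groups. Candidates numbered 4029 in bone marrow (4030 for Car3), 7574 in liver and 9708 in brain. With so many and only 9 arrays, a high r alone says nothing of a shared role. For Car3 in bone marrow, itself detected on 6 of 9 arrays, the most similar genes were Myl6 (0.937), Gadd45g (0.924) and Tpm1 (0.919). In liver they were Mgat4b (0.961), P2ry14 (0.946) and C130074G19Rik (0.928).

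For Car4 in brain the nearest were Aloxe3 (0.988), Ahcyl2 (0.985) and Pls3 (0.983), and for Car12 ILMN_1251713 they were 4632404H12Rik (0.973), Zfp97 (0.949) and Ctsz (0.936). The other Car12 probe gave Got1l1 (0.959), Cpped1 (0.958) and Rnf44 (0.941), no gene in common. For Car14 in liver ILMN_2973824 gave Aph1a (0.972), Cps1 (0.952) and F8 (0.945), and in brain ILMN_1220686 gave Usp6nl (0.978), Obi1 (0.977) and Slc13a3 (0.971). Probes of 1 gene correlated over the 9 arrays at 0.87 for Car12 in brain, and at 0.62 in liver and 0.81 in brain for Car14.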

How the data were processed

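The authors deposited, per the file headers, a linear intensity for each probe, averaged over its beads, with a detection p-value, the count of beads (whole numbers) and the spread of the bead signals as a standard error. The authors also deposited a table of processed intensities, whose columns all had medians of 85.4 to 85.6, each correlating best with its own scanner column. BeadStudio and limma are named, per the submitters' processing notes, without versions or a genome build for the probes. Signals were background-corrected and quantile-normalised with neqc (limma 3.58.1, R 4.3.3; offset 16) over the 9 arrays of a tissue, or over all 27 for levels between tissues, and taken to log2. Probes detected (p below 0.05) on at least 3 of 9 arrays were fitted with lmFit and eBayes over the 3 genotypes, two-sided, with Benjamini-Hochberg adjustment over all probes of the tissue. The interaction was fitted over liver and brain. A fold "at least" sets the bright group's mean against a floor: on each array of the dim group, the lowest signal of any detected probe, or the probe's own signal where that was higher. The standard error over beads was 1.96% to 7.49% of the signal for detected member values, on 23 to 67 beads; the number of arrays limits precision.

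Groups follow the labels. That the 3 arrays of a group are separate animals comes from the design text. Replicate numbers come from the labels; by the correlation of deviations from group means, all 3 same-numbered pairs exceeded 0.1 in homozygous against wild-type liver only (0.101, 0.108 and 0.225), so blocked values are given there. The fit was tested on simulated data. Of 45281 probes, 34885 had 1 gene symbol in the platform annotation, 18 several and 10378 none; 34807 matched a RefSeq gene. All probes of the members are accounted for; in each tested comparison those past the threshold, or else the one with the smallest p, are named first, and every other member's values follow. From other lists, members past the threshold are named; Adipoq, Ttr, Slc4a1, Car10 and Car11, with further genes named for being undetected, were chosen after their values were seen. Members, lists and tests were chosen with earlier results of these data known. Alternatives were background correction, offset, normalisation, the authors' values, filters, probes per gene, array weights, a replicate block and leaving out arrays.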

Additional observations from a re-analysis of the deposited data

Results flagged for a closer look

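Car1 and Car3 stood out because the genotype differences ran in opposite directions in liver and bone marrow, with every homozygous array on one side of the mean of the group it was compared with. The liver differences passed no test, and the 95% intervals against wild type were -0.15 to 1.13 for Car1 and -0.78 to 0.03 for Car3. The difference between the tissues was not tested, because the choice of the genes used the bone marrow values. For Car1 the difference between homozygotes and wild type was 0.49 in liver and -2.01 in bone marrow, and that between homozygotes and heterozygotes 0.62 and -1.49 (log2). For Car3 the same pairs were -0.38 and 1.38, and -0.28 and 2.39. The last value is fitted against heterozygous arrays that did not detect the probe. The bound there was at least 4.03-fold in the signals reported and at least 2.07-fold without background correction. The bone marrow arrays are those labelled homozygous, whose scaled Mysm1 values did not bear out the label of replicates 1 and 3.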

How the results depend on the processing

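Of 409 alternative values, 362 were counted as unchanged, by rules that differed between kinds of value. Tested probes and marker genes had to keep direction and side of the threshold, whatever their size. Car1 and Car3 in bone marrow and the wild-type tissue levels had to keep direction and move by less than the SD of the arrays. Values added later for Car2 and Car12 had to keep direction only. Counts of member probes had to stay equal, which gave 112 of the 362. Of all alternative values, 4 changed sign. Of these, 3 were Car2 in bone marrow against brain (log2), at -1.06 in raw heterozygous signal, -0.34 in heterozygotes with each tissue scaled alone and -0.75 in the raw signal of homozygotes. The other was Car12 ILMN_1251713 in heterozygous against wild-type brain, 0.045 without heterozygous replicate 3 in place of -0.29. The count of member probes past the threshold was 0 in all 112 alternative counts for liver, brain and the interaction. In the brain comparisons at most 3 of all probes were called under any setting, and in heterozygous against wild-type liver at most 2. An unchanged count of 0 member probes there was nearly fixed in advance and says little. For arrays labelled homozygous against wild type in bone marrow, Car1 was -1.85 without background correction, -1.77 with neqc over all 27 arrays, -1.73 with the authors' values and -3.82 with no scaling between arrays. Car3 was 0.77 without background correction, 2.18 with array weights and 0.32 with no scaling. For heterozygotes against wild type, Car3 was -0.45 without background correction, -0.51 at offset 50, -2.22 over all 27 arrays and -1.60 with no scaling, where Car1 was -2.16. For arrays labelled homozygous against heterozygotes, Car3 was 1.22, 1.43, 4.05 and 1.93 under the same settings and 2.90 with array weights; heterozygotes did not detect Car3, so its values against them are fitted, not measured folds.

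Between tissues, with each tissue scaled alone, the authors' values and no background correction, the wild-type differences were 3.27, 4.42 and 4.42 for Car1 (bone marrow to liver), 0.26, 2.67 and 2.67 for Car2 (bone marrow to brain), 3.94, 1.53 and 1.53 for Car4 (brain to bone marrow), 4.46, 2.04 and 2.04 for Car12 ILMN_1251713 (brain to bone marrow), 1.59, 0.35 and 0.35 for ILMN_2891583 (brain to liver), and 1.15, 1.27 and 1.27 for Car14 ILMN_2973824 (liver to brain). Car3 (liver to bone marrow) was 8.29 with each tissue scaled alone. The cause of these shifts was not tested.

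Leaving out 1 array gave -2.10 to -1.96 for Car1 and 1.09 to 1.78 for Car3 between arrays labelled homozygous and wild type, -1.76 to -1.31 and 2.10 to 2.55 against heterozygotes, and -0.71 to -0.25 and -1.22 to -0.61 for heterozygotes against wild type. Without heterozygous replicate 2 the last Car1 value was -0.25, and without wild-type replicate 3 the last Car3 value was -0.61. Requiring detection on all 9 arrays left no value for Car3 in bone marrow. Only in homozygous against wild-type liver did all same-numbered correlations of deviations exceed 0.1. Over all comparisons 9 of 27 did (range -0.488 to 0.420), some by more than in that liver comparison. Such correlations cannot settle whether the samples were paired. With the replicate number as a block, 0 member probes passed in liver and brain, Tspan33 and 2 female-biased genes lost their call in that liver comparison, and Car14 in homozygous against wild-type liver kept -0.60.

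Calls over all probes moved more: 55 to 440 for homozygous against wild-type liver (207 in the fit reported), 42 to 381 against heterozygotes (83), 21 to 9380 in bone marrow against wild type (171) and 0 to 3436 against heterozygotes (108), 0 to 1863 for heterozygous bone marrow (0), 32 to 207 for the interaction (132), 0 to 2 for heterozygous liver (0), and in brain 1 to 3 against wild type (2) and 0 to 2 against heterozygotes (2). The highest bone marrow counts came with array weights; without replicate 2 labelled homozygous they were 4640 and 1990. The lowest counts of 55, 42 and 21 came without homozygous replicate 2 (liver), heterozygous replicate 1 (liver) and wild-type replicate 2 (bone marrow), and that of 0 with no scaling.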

Other observations

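The bicarbonate cotransporter gene Slc4a4, picked out after its values were seen, was higher outside wild type in bone marrow. It read 4.83, 4.86 and 5.46 in wild type, 6.20, 5.64 and 5.58 in heterozygotes, and 6.67, 5.64 and 8.01 on the arrays labelled homozygous. Every array of the last 2 groups lay above every wild-type array, the highest being the dimmest array of the series. A position wholly above wild type was common, at 11.5% of all bone marrow probes for heterozygotes and 10.1% for arrays labelled homozygous. The difference of 1.72 ± 0.49 between arrays labelled homozygous and wild type did not pass the test over all bone marrow probes (limma adjusted p = 0.0871). Without replicate 2 labelled homozygous it was 2.29 ± 0.38 (limma adjusted p = 0.00312), where 30.8% of all bone marrow probes were called.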
